A study of Mus musculus with 16 samples.

Results

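Livers of 3-week-old male mice lacking both the bile acid receptor FXR (gene Nr1h4) and the small heterodimer partner SHP (gene Nr0b2), written FXR-/-SHP-/- or DKO, were compared with livers of 3-week-old male C57BL/6 wild-type mice. Each group was hybridised to 2 Illumina mouse Ref-8 version 1.1 bead arrays. A probe entered the comparison when its detection p-value, which ranks it among the negative controls of its array, was under 0.01 on both arrays of either group. This took 10138 of the 24613 probes, which named 7577 of the 15967 genes on the array, and 8864 of these probes were detected on both arrays of both groups. The study holds 16 arrays in 8 groups of 2, namely DKO, FXR-/-, SHP-/- and wild-type livers at 3 and at 5 weeks. FXR-/- and SHP-/- mice lack Nr1h4 or Nr0b2 alone, all strains were congenic with C57BL/6, and every group was male and ate normal chow. The DKO mice came from crosses of the congenic single knockouts, whereas the wild-type mice were purchased, per the labels, so genotype and source of the mice cannot be told apart. The labels give no tissue restriction for either deletion and do not say whether the 2 arrays of a group held separate animals, so the p-values measure only the spread between these arrays.

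FXR is a nuclear receptor that binds bile acids and, as a partner of RXR, switches on genes that move bile acids out of the hepatocyte. One of its targets is SHP, an unusual receptor without a DNA-binding domain, which represses the nuclear receptors NR5A2 (LRH-1) and HNF4A at the genes of bile acid synthesis. The pair thus forms a feedback loop in which bile acids restrain their own production. In the weeks after weaning the mouse liver also takes on its sex-specific expression, which is set largely by the rhythm of growth hormone secretion acting through STAT5B.

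The start regions of 6 genes on which the results turn were read from the RefSeq promoter table of GRCm38.p6, each from 250 bases before to 50 bases after the gene's start, 5′ to 3′ on the gene's strand. The first 3 are genes of bile acid synthesis or export. Capitals mark CAAAGTCCA, an HNF4-type site, joined to CCAAGG, a half-site of NR5A2, in Cyp8b1 (chr9:121916256-121916555, minus strand), and the nuclear receptor half-site AGGTCA, read on either strand, in Abcb11 (chr2:69342567-69342866, minus strand) and Slc51b (chr9:65422724-65423023, minus strand).
Cyp8b1: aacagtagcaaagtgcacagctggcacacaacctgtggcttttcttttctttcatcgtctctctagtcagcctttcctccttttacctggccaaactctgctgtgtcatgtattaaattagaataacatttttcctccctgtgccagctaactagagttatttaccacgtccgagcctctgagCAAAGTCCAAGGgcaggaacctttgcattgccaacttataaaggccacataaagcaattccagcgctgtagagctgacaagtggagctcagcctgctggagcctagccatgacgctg
Abcb11: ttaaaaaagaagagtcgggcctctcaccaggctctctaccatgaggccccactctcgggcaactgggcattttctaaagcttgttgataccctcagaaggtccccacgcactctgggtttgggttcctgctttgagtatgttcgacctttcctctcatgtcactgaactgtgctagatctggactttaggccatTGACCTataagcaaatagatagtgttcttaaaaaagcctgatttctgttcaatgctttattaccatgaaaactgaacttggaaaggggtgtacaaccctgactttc
Slc51b: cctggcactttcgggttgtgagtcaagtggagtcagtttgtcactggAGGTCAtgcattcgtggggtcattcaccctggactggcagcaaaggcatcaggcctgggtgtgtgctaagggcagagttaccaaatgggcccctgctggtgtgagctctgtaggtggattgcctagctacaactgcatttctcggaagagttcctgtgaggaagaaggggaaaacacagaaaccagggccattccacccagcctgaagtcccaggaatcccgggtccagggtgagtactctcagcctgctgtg
The remaining 3 are neighbouring cytochrome P450 genes that all rose. Capitals mark the bases at which Cyp2b9 (chr7:26173159-26173458, plus strand) and Cyp2b13 (chr7:26061245-26061544, plus strand) differ, and Cyp2b10 (chr7:25897408-25897707, plus strand) is printed without capitals.
Cyp2b9: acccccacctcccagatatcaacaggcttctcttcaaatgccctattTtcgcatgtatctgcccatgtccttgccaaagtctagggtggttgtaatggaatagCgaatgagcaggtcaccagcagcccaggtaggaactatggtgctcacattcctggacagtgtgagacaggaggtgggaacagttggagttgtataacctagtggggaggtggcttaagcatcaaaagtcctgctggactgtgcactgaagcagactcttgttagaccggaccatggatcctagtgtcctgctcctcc
Cyp2b13: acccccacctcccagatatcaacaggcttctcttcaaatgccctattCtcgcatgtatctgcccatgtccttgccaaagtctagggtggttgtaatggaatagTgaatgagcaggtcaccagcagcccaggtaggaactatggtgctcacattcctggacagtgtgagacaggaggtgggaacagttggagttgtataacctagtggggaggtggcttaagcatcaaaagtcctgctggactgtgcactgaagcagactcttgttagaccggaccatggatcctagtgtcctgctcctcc
Cyp2b10: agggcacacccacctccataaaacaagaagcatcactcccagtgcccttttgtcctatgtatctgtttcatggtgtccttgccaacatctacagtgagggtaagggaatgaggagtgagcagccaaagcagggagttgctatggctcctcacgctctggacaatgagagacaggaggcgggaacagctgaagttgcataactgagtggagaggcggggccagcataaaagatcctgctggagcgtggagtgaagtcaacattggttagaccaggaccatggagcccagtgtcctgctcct
The Cyp2b9 and Cyp2b13 windows differed at 2 of 300 bases (99.3% identity), and in a global alignment 74.3% of the bases of Cyp2b10 matched each of them. With both strands searched, CAAAGTCCA was found in 0.475% of 32851 promoter windows, CCAAGG in 21.4%, TCAAGG, the other common form of the NR5A2 half-site, in 14.4% and AGGTCA in 16.3%. Cyp8b1 held CAAAGTCCA at base 184 and CCAAGG at base 190 of its window, overlapping by 3 bases. AGGTCA also stood at base 113 of the Cyp2b9 and Cyp2b13 windows, where it is not in capitals. The IR-1 element, here GGTCA and its reverse complement around 1 free base, is a form bound by FXR with RXR. Its exact form was found in 0.0396% of all windows and in none of the 6 printed here. Forms with a mismatch were not searched, and how often they occur was not counted. The stretches ggccatTGACC in Abcb11 and ggtcattcacc in Slc51b each differ from the exact form at 1 base. These are matches of letters, and binding was not measured.

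The deleted receptors came first as a check of the labels. Nr1h4 measured 4.28 and 4.23 on the DKO arrays, against 10.98 and 10.92 on the wild-type arrays, in log2 intensity. Its probe was undetected on both DKO arrays, so the fall was at least 70.1-fold. Nr0b2 could not be checked, since its probe was undetected on all 4 arrays, with signals of 28.5 and 32.4 in DKO livers and 32.0 and 32.8 in wild-type livers.

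Of the 7577 genes, 2032 (26.8%) differed between DKO and wild-type livers in limma's moderated test at a Benjamini-Hochberg adjusted p under 0.05, here written as called. Among them 1084 (14.3%) were higher and 948 (12.5%) were lower in DKO livers. These shares over all genes apply beside each list count below that comes from this same comparison and fit. A change of at least 2-fold was called for 305 genes (4.03%), of which 169 (2.23%) were higher and 136 (1.79%) lower. The median log2 difference over all 7577 genes was 0.0057 and its median standard error was 0.1213. Median centring in place of quantile normalization gave 741 higher and 1167 lower calls, so that 38.8% of the calls were higher, against 53.3% before, with the median of all genes moved to -0.0681. The DKO arrays lay further apart from each other than the wild-type arrays, with a median absolute difference between duplicates of 0.1855 on the log2 scale in DKO livers and 0.0969 in wild-type livers. DKO replicate 2 carried weak labelling controls, with a mean biotin signal of 1850.6 against 3186.7 on DKO replicate 1 and 3215 and 3200.8 on the wild-type arrays. The 4 arrays compared lay on 1 slide, and since the fit shares 1 estimate of the spread among all 16 arrays, they were also fitted alone, which called 1033 genes, 1030 of them also called before. Leaving out wild-type replicate 1 or replicate 2 gave 581 and 556 lower calls in place of 948.

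Genes of tissues that lie next to the liver differed between the groups. The summed signal of 30 skeletal muscle probes was 13035 and 13483 on the DKO arrays, against 3420 and 3755 on the wild-type arrays, and 23 of the 30 were undetected in wild-type livers. Of the 24 muscle genes that passed the detection rule, 17 passed through the DKO arrays alone and so had to be higher there, and all 7 that were detected in both groups were called higher. Skeletal actin Acta1 lay at 11.48 and 11.72 in DKO livers, against 4.94 and 5.02 in wild-type livers. The 27 exocrine pancreas probes summed to 4276 and 4554 in DKO livers, against 8316 and 8032 in wild-type livers, and of 20 measured members 15 passed through the wild-type arrays alone and 4 of the 5 detected in both groups were lower. The digestive protease precursor Ctrb1 was at least 18.1-fold lower. The 24 stomach and intestine probes summed to 241 and 256 in DKO livers, against 6046 and 5992 in wild-type livers, and of 15 measured members 9 passed through the wild-type arrays alone and 4 of the 6 detected in both groups were lower. The mucosal trefoil factor Tff2 lay at 4.89 and 4.90 in DKO livers, against 11.96 and 11.97 in wild-type livers. The summed signal of hepatocyte markers overlapped between the groups, at 123913 and 122833 in DKO livers, against 121639 and 125574 in wild-type livers, with 19 of 21 detected in each group and Fgb and Tat undetected in both. Quantile normalization gives every array the same set of values, which holds sums of such bright probes close together. The overlap therefore does not measure equal hepatocyte content. In the single knockouts of the same age, which share these wild-type arrays, 20 of 20 pancreas genes were lower in FXR-/- and in SHP-/- livers, and 21 and 16 of the 24 muscle genes were higher, counts that the detection rule bears on in the same way. At 5 weeks these signals were spread otherwise among the genotypes. Mean Acta1 then lay at 11.18 in wild-type, 11.90 in DKO, 12.03 in SHP-/- and 5.92 in FXR-/- livers. Ctrb1 was undetected in wild-type and DKO livers of that age, and measured 7.87 in FXR-/- and 10.65 in SHP-/- livers. In DKO against wild-type livers at 5 weeks 22 of 24 muscle genes were higher. Of 20 pancreas genes 3 were higher and 1 lower, and of 15 stomach and intestine genes 2 were higher and 1 lower. Shares over all genes were not counted for the single knockouts against wild type or for 5 weeks. The part of muscle, pancreas and stomach RNA in the other results was not tested, and leaving out the genes of these 3 lists, an alternative chosen after seeing the data, left 1060 higher and 916 lower calls.

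**Figure D1:**
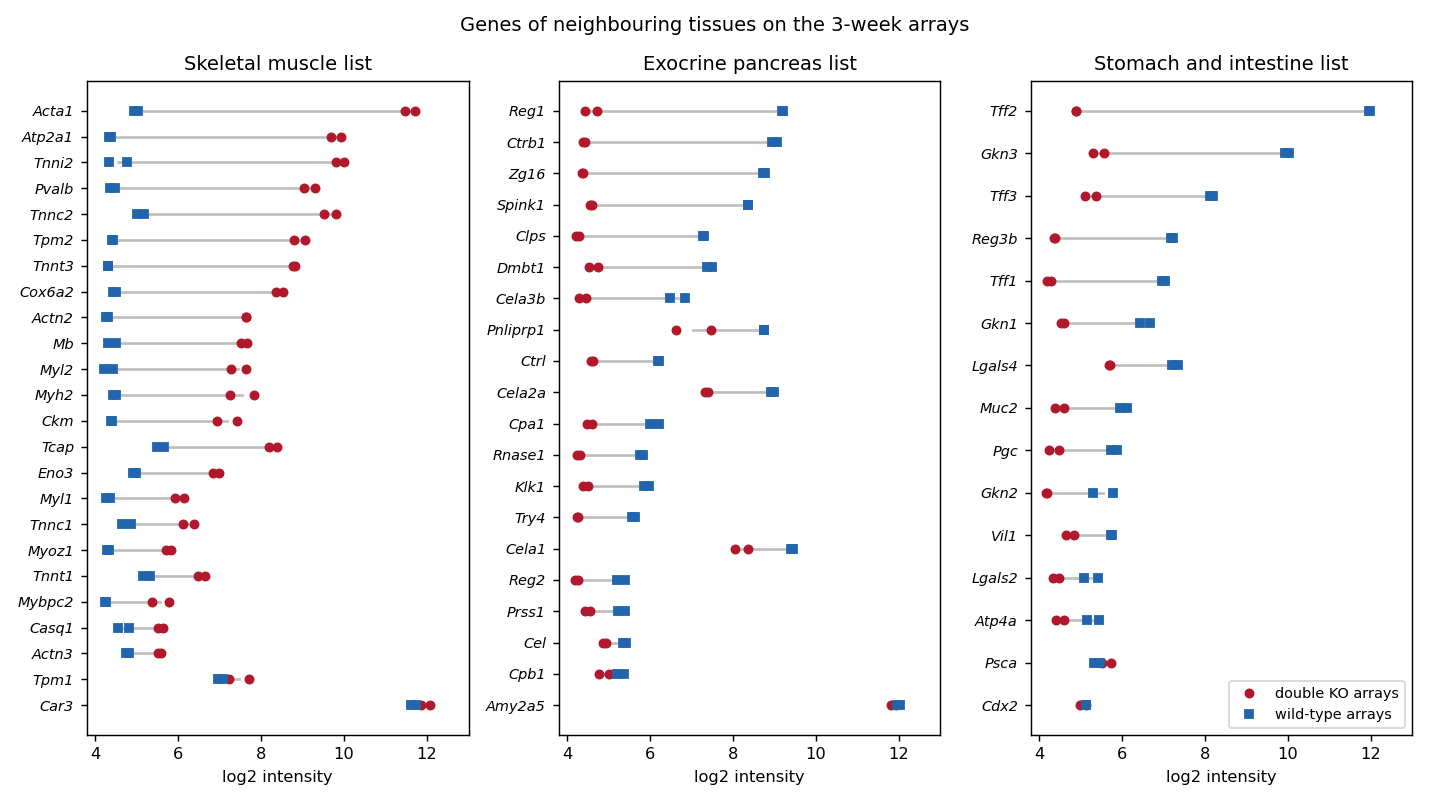
Normalised log2 intensity of each measured gene of the skeletal muscle, exocrine pancreas, and stomach and intestine lists on the 2 DKO arrays (red circles) and the 2 wild-type arrays (blue squares) at 3 weeks, with grey lines joining the group means. Muscle genes such as Acta1 lie to the right on the DKO arrays, and pancreas and stomach genes such as Tff2 lie to the right on the wild-type arrays.

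Genes of bile acid synthesis were called in both directions, with 2 hydroxylases of the classic pathway higher and 4 other enzymes lower in DKO livers. Of 14 measured members, 2 were higher, 4 were lower and 8 were not called, and the list's median log2 difference was -0.09. The higher members were 14.3% of the list, the same share as over all genes, and the lower members 28.6%, against 12.5% over all genes. Cyp7a1, the rate-limiting enzyme of the classic pathway, measured 11.40 and 11.80 in DKO livers, against 9.91 and 9.80 in wild-type livers. Cyp8b1, the sterol hydroxylase that directs synthesis towards cholic acid and whose promoter is printed above, measured 13.23 and 13.23 in DKO livers, against 11.93 and 11.98 in wild-type livers. In both genes every DKO array lay above every wild-type array. The log2 differences were 1.74 ± 0.10 for Cyp7a1 (SE, adjusted p = 3.4e-10) and 1.27 ± 0.08 for Cyp8b1 (SE, adjusted p = 1.7e-09). Cyp27a1, the mitochondrial hydroxylase that begins the alternative pathway, measured 10.65 and 10.88 in DKO livers, against 11.20 and 11.17 in wild-type livers, a difference of -0.42 ± 0.08 (adjusted p = 9.2e-04). The sterol carrier and thiolase Scp2 fell by 0.35, the bile acyl-CoA synthetase Slc27a5 fell by 0.24 and Cyp2c70, which makes muricholic acids in mice, fell by 0.23 on the log2 scale. These 3 small calls ended when the 4 arrays were fitted alone (adjusted p = 0.056 for Scp2, 0.188 for Slc27a5 and 0.19 for Cyp2c70). Cyp7b1, the oxysterol hydroxylase of the alternative pathway, measured 8.75 and 9.17 in DKO livers, against 9.01 and 9.09 in wild-type livers, and was not called (adjusted p = 0.619). Cyp39a1, Acox2, Akr1c6, Hsd3b7, Acot8 and Slc27a2 were not called either, at differences between -0.21 for Slc27a2 and 0.23 for Acot8. The conjugating enzyme Baat stood apart between the DKO arrays, at 9.09 and 7.97, against 8.87 and 8.60 in wild-type livers, and was not called (adjusted p = 0.592).

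**Figure D2:**
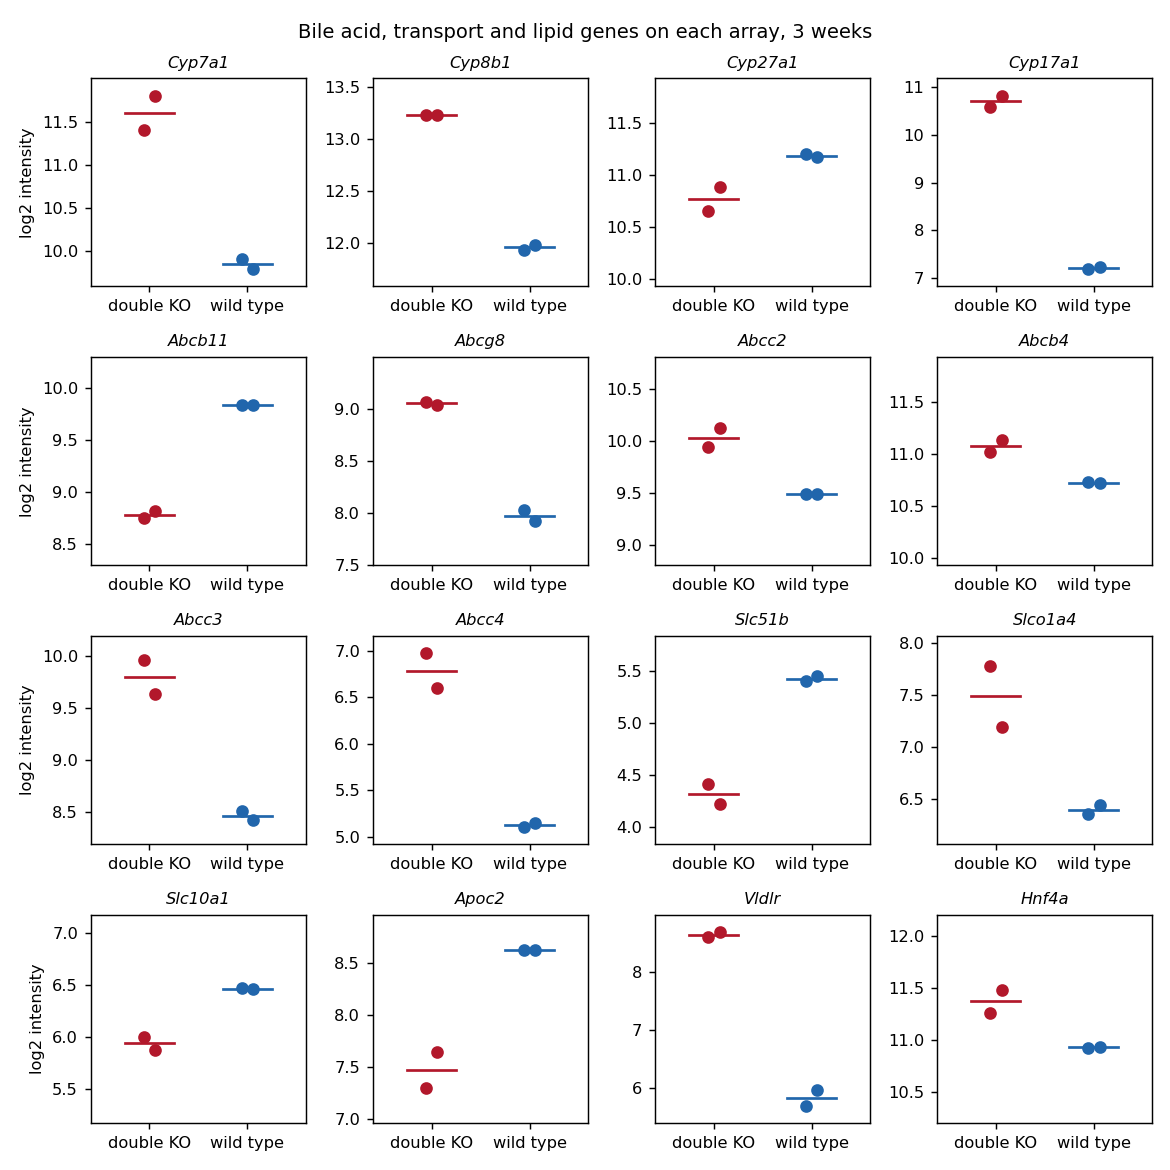
Normalised log2 intensity of 16 genes of bile acid synthesis, transport, lipid metabolism and transcription on each array at 3 weeks, with the DKO arrays in red on the left, the wild-type arrays in blue on the right and horizontal lines at the group means. Each panel has its own vertical range. All 16 genes shown were called, and uncalled members of the same lists, such as Cyp7b1 and Baat, are not drawn, so the gap between the groups does not describe the lists. Slc51b was undetected on the DKO arrays, so its panel does not measure the size of a fall.

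Of 6 measured transporters of the canalicular membrane, which secrete bile, 4 were higher, 1, the bile salt pump Abcb11, was lower and 1 was not called, and from the 4 arrays alone 2 were higher and 1 lower. Abcb11, the bile salt export pump and a classic FXR target, measured 8.75 and 8.82 in DKO livers, against 9.84 and 9.84 in wild-type livers, a difference of -1.06 ± 0.09 (adjusted p = 7.2e-08). Abcg8, which with Abcg5 forms the sterol exporter, measured 9.07 and 9.04 in DKO livers, against 8.02 and 7.92 in wild-type livers, a difference of 1.08 ± 0.09 (adjusted p = 3.6e-08). The other members that rose did so by less. Abcc2, the conjugate exporter MRP2, rose by 0.54 ± 0.08 (adjusted p = 8.0e-05), although the mean over its probes was not called (adjusted p = 0.06). Abcg5 rose by 0.39 and the phospholipid flippase Abcb4 by 0.35, and neither of them was called from the 4 arrays alone (adjusted p = 0.055 for Abcg5 and 0.068 for Abcb4). The copper pump Atp7b was not called, at a difference of -0.30.

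On the sinusoidal side, which faces the blood, 3 of 6 measured uptake genes were lower and 2 higher in DKO livers, and 2 of 3 efflux pumps of the MRP family were higher. Leaving out DKO replicate 2, wild-type replicate 1 or wild-type replicate 2 gave 1, 1 and 0 lower uptake genes. Slc10a1, the sodium-dependent bile acid carrier NTCP, measured 6.00 and 5.88 in DKO livers, against 6.47 and 6.46 in wild-type livers, a difference of -0.53 ± 0.15 (adjusted p = 0.013). That call ended with array weights and when DKO replicate 2 or either wild-type replicate was left out (adjusted p between 0.062 and 0.077). The organic anion carriers Slc22a7 and Slco2b1 fell by 0.53 and 0.31, of which Slco2b1 was not called from the 4 arrays alone (adjusted p = 0.184) and Slc22a7 not without wild-type replicate 2 (adjusted p = 0.051). Slco1a4, an organic anion carrier also induced by PXR, measured 7.78 and 7.20 in DKO livers, against 6.35 and 6.44 in wild-type livers, a difference of 1.09 ± 0.15 (adjusted p = 3.2e-05). Abcc3 and Abcc4, pumps that can return bile acids to the blood, measured 9.96 and 9.63 (Abcc3) and 6.97 and 6.60 (Abcc4) in DKO livers, against 8.51 and 8.42 (Abcc3) and 5.11 and 5.14 (Abcc4) in wild-type livers. Their differences were 1.33 ± 0.10 (adjusted p = 1.5e-08) for Abcc3 and 1.66 ± 0.14 (adjusted p = 5.9e-08) for Abcc4. Slc51b, the beta subunit of the organic solute transporter and an FXR target, measured 4.41 and 4.22 in DKO livers, where it was undetected, against 5.40 and 5.46 in wild-type livers, and was at least 1.5-fold lower. Its partner Slc51a was undetected in DKO livers too and at least 1.1-fold lower, a call that ended with the 4 arrays alone (adjusted p = 0.108). Abcc6 and Slco1b2 were not called, at differences of 0.18 and -0.29, and microsomal epoxide hydrolase Ephx1 rose by 0.44, not called from the 4 arrays alone (adjusted p = 0.065).

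Among 20 measured receptors, cofactors and liver transcription factors, 3 were higher, 3 were lower including Nr1h4 itself, and 14 were not called. That is 15% in each direction, near the 14.3% higher and 12.5% lower over all genes. Without DKO replicate 1 these counts were 6 higher and 1 lower, without DKO replicate 2 they were 3 and 5, and without wild-type replicate 1 a single gene was lower. The 3 rises were Hnf4a, a master factor of hepatocyte identity, at 11.26 and 11.48 in DKO livers, against 10.92 and 10.93 in wild-type livers, with a difference of 0.44 ± 0.08 (adjusted p = 3.1e-04), the pioneer factor Foxa3 at 0.45 and the acute phase factor Cebpb at 0.46. Sirt1 fell by 0.52 and Cebpa by 0.33, of which Cebpa was not called from the 4 arrays alone (adjusted p = 0.146) and Sirt1 not with array weights or without DKO replicate 1 or wild-type replicate 1 (adjusted p between 0.06 and 0.086). Nr5a2, the activator that SHP restrains, measured 7.65 and 8.26 in DKO livers, against 7.70 and 7.94 in wild-type livers, and was not called (adjusted p = 0.567). The xenobiotic receptor Nr1i2 (PXR), the fatty acid receptor Ppara, the oxysterol receptor Nr1h3, Pparg, Rora, Esrra, Klb, Mafg, Prox1, Foxa1, Foxa2, Ncoa1 and Ncoa3 were not called, at differences between -0.34 for Prox1 and 0.28 for Ppara. Ppara was at the edge of the threshold (adjusted p = 0.06) and was called in the authors' processed table or without DKO replicate 1 (adjusted p between 0.033 and 0.049).

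Of 18 measured genes reported as FXR targets, 4 were higher and 6 were lower in DKO livers, and 8 were not called, with a median log2 difference of 0.05. Leaving out wild-type replicate 1 or wild-type replicate 2 gave 3 lower calls each, and so did the 4 arrays alone. Besides Abcb11, Slc51a, Slc51b and Slc27a5, the falls were Apoc2, the cofactor of lipoprotein lipase, and Apoa5, an apolipoprotein that promotes triglyceride clearance. Apoc2 measured 7.30 and 7.64 in DKO livers, against 8.63 and 8.62 in wild-type livers, a difference of -1.16 ± 0.12 (adjusted p = 9.0e-07). Apoa5 fell by 0.48 and was not called from the 4 arrays alone (adjusted p = 0.166). Besides Abcc2 and Abcb4, the rises were Fetub, a plasma cystatin, by 0.64 (adjusted p = 5.2e-05), and Vldlr, the receptor for triglyceride-rich lipoproteins, which measured 8.59 and 8.68 in DKO livers, against 5.70 and 5.96 in wild-type livers, a difference of 2.81 ± 0.13 (adjusted p = 7.1e-12). Fga, Fgg, Kng1, Insig2, Pltp, Scarb1, Sdc1 and Baat were not called, and Fgg stood apart between the DKO arrays at 6.59 and 5.61.

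Steroid hormone metabolism held a strong rise and a strong fall side by side. Of 11 measured members 1 was higher, 6 were lower and 4 were not called. Without DKO replicate 2 or wild-type replicate 2 there were 2 lower calls. Cyp17a1, the steroid hydroxylase and lyase on the way to androgens, measured 10.59 and 10.82 in DKO livers, against 7.19 and 7.23 in wild-type livers, a difference of 3.49 ± 0.10 (adjusted p = 1.4e-14). Hsd3b5, a male-biased ketosteroid reductase of mouse liver, measured 5.92 and 6.33 in DKO livers, against 10.95 and 11.18 in wild-type livers, a difference of -4.94 ± 0.12 (adjusted p = 1.1e-15). Hsd17b2, which inactivates androgens and oestrogens, measured 9.66 and 9.19 in DKO livers, against 10.74 and 10.69 in wild-type livers, a difference of -1.29 ± 0.12 (adjusted p = 1.2e-07). In these 3 genes the groups lay far outside the spread of their duplicates. Hsd3b2, Srd5a3, Hsd17b7 and Hsd17b12 fell by 0.44, 0.39, 0.32 and 0.36, and none of these 4 was called from the 4 arrays alone (adjusted p = 0.097 for Hsd3b2, 0.108 for Srd5a3, 0.193 for Hsd17b7 and 0.224 for Hsd17b12). Hsd11b1, which regenerates active glucocorticoid, Hsd17b6, Hsd17b13 and Akr1c14 were not called, at differences between -0.27 for Hsd17b6 and 0.10 for Hsd11b1.

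Genes with a known sex bias in mouse liver shifted towards the female side in these male livers. Of 20 measured male-biased genes 16 were lower, 0 were higher and 4 were not called, and of the 15 detected in both groups 12 were lower. Of 18 measured female-biased genes, a list that also holds Cyp17a1 and Vldlr, 17 were higher, 0 were lower and 1 was not called, and of the 17 detected in both groups 16 were higher. Over all 7577 genes 12.5% were lower and 14.3% were higher. Fitted from the 4 arrays alone, 15 male-biased genes were lower and 16 female-biased genes higher. The single knockouts of the same age, which share these wild-type arrays, shifted against wild type too. Of the 20 male-biased genes 16 were lower and 2 higher in FXR-/- livers, and 15 lower and 0 higher in SHP-/- livers. Of the 18 female-biased genes 11 were higher and 3 lower in FXR-/- livers, and 12 higher and 0 lower in SHP-/- livers. Of the male-biased genes 5 had passed the detection rule through the wild-type arrays alone. Cyp4a12a, the main arachidonic acid omega-hydroxylase of male mouse liver, measured 4.43 and 4.49 in DKO livers, where it was undetected, against 9.68 and 9.47 in wild-type livers, at least 27.0-fold lower. Its close copy Cyp4a12b was at least 10.1-fold lower, at 4.18 and 4.23 in DKO livers, against 8.19 and 8.13 in wild-type livers. Elovl3, a fatty acid elongase with a strong male bias, was undetected in DKO livers and at least 2.6-fold lower. Cyp2d9, a steroid hydroxylase, fell by 3.03 ± 0.09 and Nudt7, a peroxisomal coenzyme A diphosphatase, fell by 2.92 ± 0.15 on the log2 scale. Nudt7 measured 8.95 and 8.23 in DKO livers, against 11.56 and 11.46 in wild-type livers. Among the female-biased genes the Cyp2b cluster rose together. Cyp2b13 measured 9.26 and 9.19 in DKO livers, against 6.39 and 6.53 in wild-type livers, a difference of 2.76 ± 0.10 (adjusted p = 4.5e-13), and Cyp2b9, with a start region 2 bases apart from it, measured 10.81 and 10.85 in DKO livers, against 8.82 and 8.81 in wild-type livers, a difference of 2.01 ± 0.10 (adjusted p = 5.3e-11). Cyp2b10 measured 8.23 and 7.68 in DKO livers, against 5.86 and 5.70 in wild-type livers, a difference of 2.17 ± 0.15 (adjusted p = 4.0e-09). How far probes of such close copies read each other's RNA was not tested. The hydroxyacid oxidase Hao2 rose by 2.26 ± 0.16, the acyl-CoA thioesterase Acot3 by 2.11 ± 0.15 and the sulfotransferase Sult2a2 by 2.03 ± 0.10. Serpina1e and Cyp7b1 of the male list and Fmo4 of the female list were not called. Of 6 Y-linked and X-inactivation genes none was higher, and Kdm5d on the Y was called at least 1.4-fold lower, a call that ended with the 4 arrays alone (adjusted p = 0.061).

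**Figure D3:**
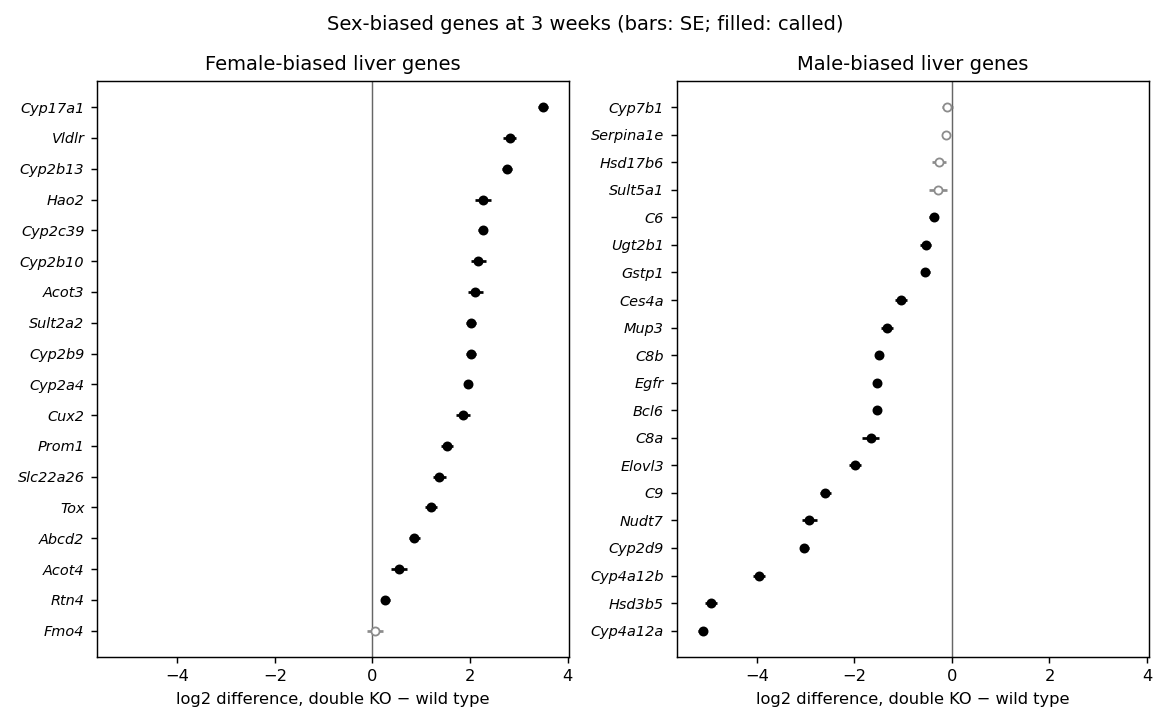
Log2 difference between DKO and wild-type livers at 3 weeks, with its standard error, for 18 female-biased genes (left) and 20 male-biased genes (right), where filled points are called and open points are not. Female-biased genes lie at or right of 0 with 17 of 18 called, and male-biased genes lie left of 0 with 16 of 20 called. Cyp4a12a, Cyp4a12b and Elovl3 were undetected in DKO livers and Cux2 in wild-type livers, so the size of these 4 differences is not measured.

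Components of growth hormone signalling shifted as well. Of 17 measured genes of the growth hormone, STAT5 and IGF axis 8 were lower, 3 were higher and 6 were not called. Socs2, a feedback inhibitor induced by STAT5, measured 8.80 and 8.30 in DKO livers, against 10.89 and 10.88 in wild-type livers, a difference of -2.33 ± 0.12 (adjusted p = 7.3e-11). Bcl6, a repressor with a male bias, measured 8.16 and 8.13 in DKO livers, against 9.63 and 9.74 in wild-type livers, a difference of -1.54 ± 0.09 (adjusted p = 2.3e-10). Cux2, a repressor found mainly in female liver, measured 6.15 and 6.30 in DKO livers, against 4.48 and 4.26 in wild-type livers, where it was undetected, at least 2.5-fold higher. The IGF carriers split, with Igfbp2 lower by 2.30 ± 0.10 and the acid-labile subunit Igfals lower by 0.81, while Igfbp1, a hepatic protein induced by fasting, rose by 1.68 ± 0.20. The growth factor receptor Egfr fell by 1.53 ± 0.07 and the IGF2 clearance receptor Igf2r rose by 0.96 ± 0.10. The growth hormone receptor Ghr and the carrier Igfbp4 were not called.

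Enzymes of drug and electrophile defence rose. Of 23 measured CAR and PXR targets 16 were higher and 0 lower, with a median log2 difference of 0.51, and of 18 NRF2 targets 12 were higher and 0 lower, with a median of 0.49. Beyond the Cyp2b genes, Cyp2c39, a retinoic acid hydroxylase, measured 7.68 and 7.43 in DKO livers, against 5.32 and 5.28 in wild-type livers, a difference of 2.26 ± 0.10 (adjusted p = 5.6e-12). Glutathione transferases rose on both lists, with Gsta2 at 7.41 and 7.21 in DKO livers, against 6.40 and 6.13 in wild-type livers. Gsta2 rose by 1.05 ± 0.12, Gsta1 by 0.99 ± 0.15, Gstm2 by 0.98 ± 0.07 and Gstm3 by 0.82 ± 0.18, and the microsomal transferase Mgst3 by 1.30 ± 0.11. Nqo1, a quinone reductase and standard NRF2 marker, measured 6.26 and 6.70 in DKO livers, against 5.77 and 5.67 in wild-type livers, a difference of 0.76 ± 0.14 (adjusted p = 5.0e-04). Haem oxygenase Hmox1 rose by 0.78 ± 0.09 (adjusted p = 2.1e-06). Cyp3a11, the main PXR-induced P450, and the bright transferases Gstm1 and Gsta3 were not called. Among 15 conjugating enzymes 6 were higher and 3 lower, with Sult1c2 up by 1.25 ± 0.15, Sult1a1 by 0.56 ± 0.07, Sult1d1 by 0.51 and the bilirubin transferase Ugt1a1 by 0.50, and with Sult2a8, a bile acid sulfotransferase of mouse liver, down at 9.23 and 8.72 in DKO livers, against 10.42 and 10.30 in wild-type livers. The glucuronosyltransferases Ugt2b35 and Ugt2b1 fell by 1.01 and 0.53.

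**Figure D4:**
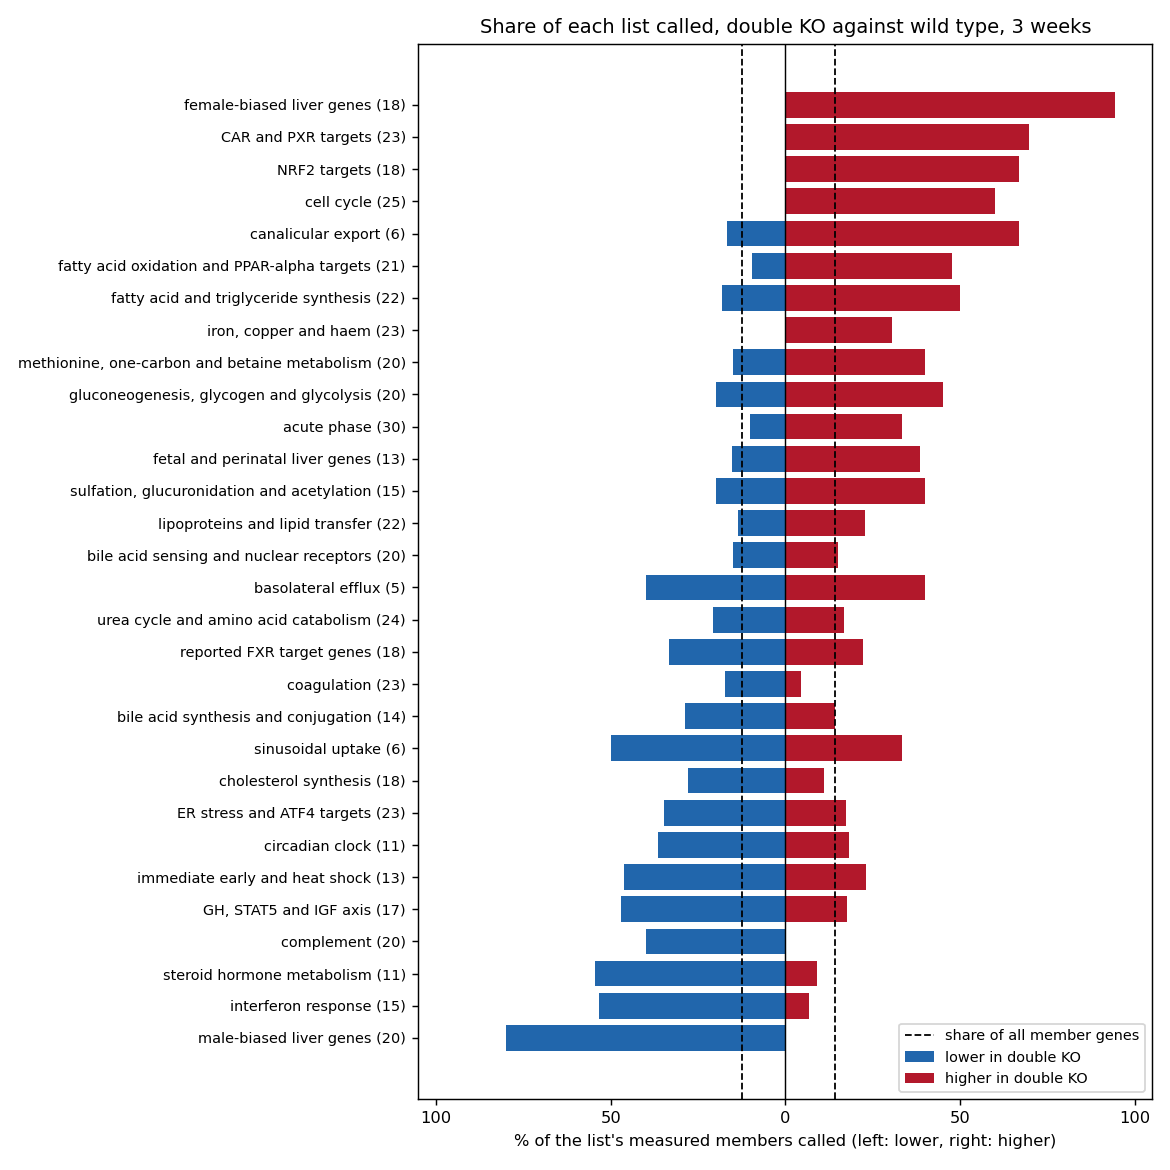
Share of the measured members of each gene list that was called lower (blue, left) or higher (red, right) in DKO livers than in wild-type livers at 3 weeks, with the number of measured members in brackets. Dashed lines mark the shares over all 7577 genes, 12.5% lower and 14.3% higher, with 17 of 18 female-biased genes higher and 16 of 20 male-biased genes lower.

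Lipid synthesis and lipid burning genes both leaned higher, and cholesterol synthesis did not. Of 22 genes of fatty acid and triglyceride synthesis 11 were higher and 4 lower, with a median log2 difference of 0.42. The lipid droplet coat protein Plin4 measured 6.70 and 6.40 in DKO livers, against 4.75 and 4.89 in wild-type livers, where it was undetected, at least 3.2-fold higher. Pnpla3, a droplet lipase relative, measured 6.05 and 6.10 in DKO livers, against 4.83 and 4.49 in wild-type livers, where it was undetected, at least 2.3-fold higher. Elovl6, which elongates palmitate, rose by 1.29 ± 0.10, the droplet protein Plin5 by 1.03 ± 0.16, the desaturases Fads2 and Scd2 by 0.93 and 0.65, and the phosphatidate phosphatase Lpin2 by 0.75. Thrsp, a thyroid-responsive promoter of lipogenesis, went the other way, at 8.83 and 9.29 in DKO livers, against 9.94 and 9.93 in wild-type livers, a difference of -0.87 ± 0.12 (adjusted p = 2.2e-05). Scd1 and Acly, 2 of the brightest members, were not called, but Scd1 was called under the authors' processed table, the filter for probes detected on all 4 arrays, the replicate block and without DKO replicate 2 (adjusted p between 0.003 and 0.049).

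Of 21 genes of fatty acid oxidation and PPAR-alpha targets 10 were higher and 2 lower, with a median log2 difference of 0.27, and 6 were higher and 1 lower both from the 4 arrays alone and without wild-type replicate 2. Pdk4, which spares glucose by blocking pyruvate dehydrogenase, rose by 1.33 ± 0.11 (adjusted p = 5.0e-08). The peroxisome proliferation factor Pex11a measured 9.99 and 9.83 in DKO livers, against 9.13 and 9.21 in wild-type livers, a rise of 0.74 ± 0.09, and the lipase inhibitor Angptl4 rose by 0.52 ± 0.08. Fgf21, the fasting hormone driven by PPAR-alpha, fell, at 5.37 and 5.84 in DKO livers, against 7.62 and 7.59 in wild-type livers, a difference of -2.00 ± 0.13 (adjusted p = 1.9e-09). The other call in that direction was Creb3l3, a liver transcription factor that acts with PPAR-alpha, lower by 0.25. Bdh1, the ketone body dehydrogenase, rose by 0.46, but the mean over its probes was not called (adjusted p = 0.481), and Hadh rose by 0.39, not called from the 4 arrays alone (adjusted p = 0.14). Of 18 cholesterol synthesis genes 5 were lower and 2 higher, with a median of -0.20, all within a log2 difference of -0.52 for mevalonate kinase Mvk and 0.42 for the sterol reductase Tm7sf2. From the 4 arrays alone 1 member, Mvk, was called (adjusted p = 0.038), and without wild-type replicate 1 or replicate 2 there were 3 and 2 lower calls. Hmgcs1 and Msmo1 were not called. Of 22 genes of lipoproteins and lipid transfer 5 were higher, 3 lower and 14 not called, and outside Vldlr and Apoc2 the called change of largest size was a rise of 0.67 ± 0.12 in Apoa4 (adjusted p = 5.6e-04). Apoh differed by -0.94 but stood apart between the DKO arrays, at 11.42 and 8.58, against 11.08 and 10.81 in wild-type livers, and was not called (adjusted p = 0.648). The main structural apolipoproteins moved little, with Apob lower by 0.23 and Apom higher by 0.28, neither called from the 4 arrays alone (adjusted p = 0.203 for Apob and 0.137 for Apom), and Apoa2 and Apoc3 not called.

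Genes of sulfur amino acid and methyl metabolism leaned higher, led by taurine synthesis. Of 20 members 8 were higher, 3 lower and 9 not called, and the 4 arrays alone gave 5 higher and 1 lower, while 6 were lower without DKO replicate 1 and 1 without wild-type replicate 1. Csad, which makes the taurine used in mice to conjugate bile acids, measured 11.93 and 11.62 in DKO livers, against 9.62 and 9.72 in wild-type livers, a difference of 2.10 ± 0.10 (adjusted p = 8.3e-12). Cdo1, the preceding enzyme, was spread between the DKO arrays at 9.41 and 8.57, against 8.50 and 8.12 in wild-type livers, and its rise of 0.68 was not called from the 4 arrays alone (adjusted p = 0.11). Nnmt, which consumes methyl groups, rose by 0.78 ± 0.11, the betaine methyltransferase Bhmt by 0.69 ± 0.15, the creatine-forming methyltransferase Gamt by 0.57 and Sardh by 0.54, and the mitochondrial folate enzyme Mthfd2 fell by 0.84 ± 0.13 (adjusted p = 8.1e-05). Among 24 genes of the urea cycle and amino acid catabolism 4 were higher and 5 lower, near the shares over all genes. Without DKO replicate 1 they were 7 higher and 8 lower, and without wild-type replicate 1 there were 3 lower. The histidine enzymes Amdhd1 and Ftcd fell by 1.13 ± 0.08 and 0.62 ± 0.08 and the urea cycle enzyme Ass1 by 0.58 ± 0.07, while the transaminase Gpt2 rose by 0.80 ± 0.09 and the tyrosine enzyme Hpd by 0.53.

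Of 20 genes of gluconeogenesis, glycogen and glycolysis 9 were higher and 4 lower, with a median log2 difference of 0.15, and from the 4 arrays alone 5 were higher and 3 lower. Pck1, which commits oxaloacetate to glucose, measured 8.89 and 8.42 in DKO livers, against 7.54 and 7.73 in wild-type livers, a difference of 1.02 ± 0.15 (adjusted p = 4.6e-05). Its regulators Foxo1 and Ppargc1a rose by 0.71 ± 0.11 and 0.53 ± 0.09, and pyruvate kinase Pklr by 0.62 ± 0.09. Of 23 genes of ER stress and ATF4 targets 8 were lower and 4 higher, with 5 lower from the 4 arrays alone or without DKO replicate 2 and 2 higher without wild-type replicate 1. Chac1, a glutathione-degrading enzyme, measured 6.02 and 5.79 in DKO livers, against 7.83 and 7.87 in wild-type livers, a difference of -1.94 ± 0.13 (adjusted p = 2.4e-09). Asns, asparagine synthetase, measured 8.37 and 8.14 in DKO livers, against 6.34 and 6.76 in wild-type livers, a difference of 1.71 ± 0.12 (adjusted p = 4.0e-09). Xbp1, the transcription factor of the unfolded protein response, fell by 0.78 ± 0.10, the pseudokinase Trib3 by 0.72 ± 0.09 and Gadd45a by 0.61, whereas the chaperone Hspa5 rose by 0.63 ± 0.18, a call that ended with array weights, median centring and without DKO replicate 1 or wild-type replicate 1 (adjusted p between 0.056 and 0.154).

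Among genes of plasma proteins made by the liver, of 30 acute phase genes 10 were higher and 3 lower, of 20 complement genes 8 were lower and 0 higher, and of 23 coagulation genes 4 were lower, 1 higher and 18 not called. From the 4 arrays alone 9 acute phase genes were higher and 1 lower, 4 complement genes were lower, and 1 coagulation gene was lower and 0 higher. Without DKO replicate 1 there were 7 lower and 4 higher coagulation genes and 6 lower acute phase genes, without wild-type replicate 1 and replicate 2 there were 2 and 1 lower coagulation genes, and without DKO replicate 2 or either wild-type replicate 1 acute phase gene was lower. Hamp2, a hepcidin-related peptide, measured 12.46 and 12.53 in DKO livers, against 10.29 and 10.13 in wild-type livers, a difference of 2.29 ± 0.09 (adjusted p = 7.8e-13). Serum amyloid Saa2 rose by 1.17 ± 0.12, metallothionein Mt2 by 1.07 ± 0.09, the siderophore binder Lcn2 by 0.84 ± 0.08 and the acute phase glycoprotein Orm2 by 0.81 ± 0.09. Complement falls were largest in the membrane attack components, which also carry a male bias in mouse liver. C9 measured 8.17 and 8.55 in DKO livers, against 11.04 and 10.87 in wild-type livers, a difference of -2.59 ± 0.11 (adjusted p = 2.4e-12). C8b measured 10.05 and 9.91 in DKO livers, against 11.48 and 11.48 in wild-type livers, a difference of -1.50 ± 0.08 (adjusted p = 6.1e-11), and C8a fell by 1.67 ± 0.18, with the DKO arrays at 8.57 and 7.70. The remaining complement falls were of 0.43 for Hc, 0.37 for C6, 0.34 for C8g, 0.31 for Mbl1 and 0.27 for C1s1, of which only that of Hc was called from the 4 arrays alone (adjusted p = 0.029). The clotting factor F9 fell by 0.55 ± 0.10 (adjusted p = 5.5e-04), whereas the calls of Vwf, F13b, Proc and Klkb1 ended with the 4 arrays alone (adjusted p = 0.155 for Vwf, 0.146 for F13b, 0.127 for Proc and 0.138 for Klkb1). Of 23 genes of iron, copper and haem 7 were higher and 0 lower, among them the transferrin receptor Tfrc at 8.92 and 9.35 in DKO livers, against 8.08 and 8.06 in wild-type livers, and Alas1, the first enzyme of haem synthesis, which rose by 0.51 ± 0.08.

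Of 15 interferon response genes 8 were lower and 1 higher, and 4 lower and 1 higher were counted from the 4 arrays alone, with 5 lower without either wild-type replicate. The immunoproteasome subunit Psmb9 measured 7.45 and 7.56 in DKO livers, against 8.39 and 8.31 in wild-type livers, a difference of -0.84 ± 0.10 (adjusted p = 3.6e-06). The GTPases Igtp and Irgm1 fell by 0.68 ± 0.09 and 0.57 ± 0.09. The exception was Cxcl9, a T-cell attracting chemokine, at 8.70 and 8.91 in DKO livers, against 7.29 and 7.33 in wild-type livers, a difference of 1.49 ± 0.09 (adjusted p = 6.6e-10).

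Proliferation genes were higher. Of 25 measured cell cycle genes 15 were higher and 0 lower, with a median log2 difference of 0.61, and 15 were also higher from the 4 arrays alone. Birc5, a mitotic survival protein, measured 7.20 and 7.48 in DKO livers, against 6.02 and 5.88 in wild-type livers, a difference of 1.39 ± 0.14 (adjusted p = 3.9e-07). The mitotic regulators Cdc20, Aurka and Plk1 rose by 1.03 ± 0.14, 0.92 ± 0.13 and 0.86 ± 0.16, and the replication genes Mcm2, Mcm5 and Tk1 by 0.96 ± 0.15, 0.88 ± 0.14 and 0.85 ± 0.11. The change of largest size on this list was in the opposite-acting inhibitor Cdkn1a (p21), which measured 9.09 and 9.14 in DKO livers, against 6.88 and 6.76 in wild-type livers, a difference of 2.29 ± 0.12 (adjusted p = 5.5e-11). Cyclin D1, Ccnd1, was not called. Of 13 fetal and perinatal genes 5 were higher and 2 lower. Gpc3, a fetal glypican, measured 7.61 and 7.99 in DKO livers, against 5.46 and 5.68 in wild-type livers, a difference of 2.23 ± 0.15 (adjusted p = 3.3e-09), and the imprinted growth genes Cdkn1c and Igf2 rose by 1.02 ± 0.11 and 0.83 ± 0.12. Both falls, Spink1 and Tspan8, were undetected in DKO livers and are also on the pancreas or bile duct lists.

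Markers of other liver cells moved with the group too, and in bulk RNA more cells of a type and more RNA per cell cannot be told apart. Stellate cell and matrix probes summed to 8746 and 8635 in DKO livers, against 6720 and 7030 in wild-type livers, and of 27 measured members 14 were higher and 0 lower, while Des, Tagln, Col1a2 and Col5a2 were undetected in both groups. From the 4 arrays alone 8 were higher and with median centring 9. Ccn2, a matricellular growth factor, measured 8.06 and 7.97 in DKO livers, against 6.66 and 6.46 in wild-type livers, a difference of 1.46 ± 0.13 (adjusted p = 8.0e-08), and Col1a1 measured 6.57 and 6.42 in DKO livers, against 5.15 and 5.65 in wild-type livers, a difference of 1.09 ± 0.16 (adjusted p = 3.4e-05). Endothelial probes summed to 7787 and 8172 in DKO livers, against 5996 and 6014 in wild-type livers, with 12 of 22 higher and 0 lower. From the 4 arrays alone 3 were higher, and leaving out DKO replicate 2, wild-type replicate 1 or wild-type replicate 2 gave 5, 4 and 6. Gpr182, a receptor of sinusoidal endothelium, led them at 10.36 and 10.43 in DKO livers, against 8.94 and 8.94 in wild-type livers. Of 18 macrophage and neutrophil genes 2 were higher and 4 lower, of 10 lymphocyte genes 3 were higher, of 10 bile duct genes 3 were higher and 2 lower, and of 5 adipose genes 1 was higher and 1 lower. The shares over all genes were 14.3% higher and 12.5% lower, against 11.1% and 22.2% of the macrophage and neutrophil genes and 20% each of the adipose genes. From the 4 arrays alone 2 macrophage and neutrophil genes were higher and 1 lower, 1 bile duct gene was higher and 2 lower, and 0 adipose genes were called. The bile duct markers Epcam, Krt19 and Cftr were undetected in both groups, and so were the fat markers Adipoq, Fabp4 and Lep. The share of these cells and of neighbouring tissue in the rise of the matrix and cell cycle lists was not tested.

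Lists that mark handling and time of day also moved. Of 13 immediate early and heat shock genes 6 were lower and 3 higher, with Fos, a stress-induced transcription factor, at 5.27 and 5.25 in DKO livers, against 7.02 and 7.55 in wild-type livers, and Egr1 lower by 0.83 ± 0.10. Of 11 clock genes 4 were lower and 2 higher, with the output factor Dbp at 6.81 and 7.23 in DKO livers, against 8.11 and 8.18 in wild-type livers, Nr1d1 lower by 0.53 and Per1 at least 1.7-fold higher. Their part in the other results was not tested.

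The largest changes outside the marker lists combined genes of these groups with others. By rule these were the 12 largest rises and falls with no overlap between groups. The 12 rises were led by Fabp3, a fatty acid carrier of muscle and heart, at 9.01 and 9.37 in DKO livers, against 4.68 and 4.43 in wild-type livers, at least 19.7-fold higher. Cox8b, Ckmt2, Rpl3l, Pgam2 and Myl3 among the rises are known for their expression in striated muscle, which ran with the muscle markers given above, and were at least 9.5-fold, 8.4-fold, 6.2-fold, 6.9-fold and 4.6-fold higher. The rest were Cyp17a1, Vldlr, Cyp2b13, the lysophospholipase Gdpd3 (at least 6.2-fold), the calcineurin regulator Rcan2 (at least 4.2-fold) and the steroid reductase Akr1c18, which rose by 2.90 ± 0.12 on the log2 scale. Among the 12 falls was Ang, the ribonuclease angiogenin, at 5.85 and 5.42 in DKO livers, against 10.77 and 10.82 in wild-type livers, a difference of -5.16 ± 0.12 (adjusted p = 2.8e-16). Prap1, a secreted protein of intestine and liver, was undetected in DKO livers and at least 20.3-fold lower, but it was undetected in wild-type livers at 5 weeks too. Supt16, a histone chaperone subunit, was undetected in DKO livers and at least 10-fold lower on this probe, and under the filter for probes detected on all 4 arrays another probe stood for it and was not called. Pnrc2, an RNA decay cofactor, fell by 3.23 ± 0.15, Pigr, the receptor that carries IgA into bile, fell by 2.92 ± 0.09 and the urinary protein Mup2 fell by 2.92 ± 0.13. The remaining falls were Nr1h4, Cyp4a12a, Cyp4a12b, Hsd3b5, Cyp2d9 and Nudt7.

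The DKO livers were set against each single knockout of the same age, which gives a direct test of what differs when both genes are absent. Over all 7577 genes 1188 (15.7%) differed from FXR-/- livers and 1960 (25.9%) from SHP-/- livers. Among 73 measured genes of bile acids, their transport and receptors, FXR targets and steroids, 37 were called against wild type, 24 differed from FXR-/- livers and 34 from SHP-/- livers. The differences from wild type given here for the 3 knockouts share the same wild-type arrays. Cyp17a1 was higher in DKO livers than in either single knockout. Its difference from wild type was 3.49 in DKO, 0.37 in FXR-/- and 0.61 in SHP-/- livers. It was higher in DKO livers than in FXR-/- livers by 3.12 ± 0.10 (adjusted p = 2.6e-13) and than in SHP-/- livers by 2.88 ± 0.10 (adjusted p = 6.0e-13). Hsd3b5 was lower in DKO livers than in FXR-/- livers by -3.85 ± 0.12 (adjusted p = 1.4e-13) and than in SHP-/- livers by -2.49 ± 0.12 (adjusted p = 4.9e-11). Cyp4a12a, undetected in DKO livers, was at least 13.4-fold lower there than in FXR-/- livers (adjusted p = 5.0e-16).

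Cyp7a1 lay between the single knockouts. Its difference from wild type was 1.74 in DKO, 2.45 in FXR-/- and 0.71 in SHP-/- livers, so that it was lower in DKO than in FXR-/- livers by -0.70 ± 0.10 (adjusted p = 9.2e-05) and higher than in SHP-/- livers by 1.03 ± 0.10 (adjusted p = 5.6e-07). Cyp8b1 was not called between DKO and FXR-/- livers, at a difference of 0.08 ± 0.08 (adjusted p = 0.592). Abcb11, whose promoter is printed above, was not called between DKO and FXR-/- livers either, at -0.09 ± 0.09 (adjusted p = 0.568), and was lower in DKO than in SHP-/- livers by -1.18 ± 0.09 (adjusted p = 1.9e-08). Slc51b was undetected in DKO and in FXR-/- livers and was at least 1.9-fold lower in DKO than in SHP-/- livers (adjusted p = 1.2e-08). Of the 6 canalicular genes 4 were higher and 0 lower in DKO than in FXR-/- livers, and 2 were higher and 1 lower than in SHP-/- livers. Abcg8 was higher in DKO than in FXR-/- livers by 1.05 ± 0.09 (adjusted p = 1.1e-07), Abcg5 by 0.87 ± 0.09 (adjusted p = 1.7e-06), Abcc2 by 0.86 ± 0.08 (adjusted p = 5.6e-07) and Abcb4 by 0.59 ± 0.07 (adjusted p = 1.2e-05). Mean levels in SHP-/- and DKO livers were 10.95 and 10.89 for Abcg5 and 11.03 and 11.08 for Abcb4. They were 8.71 and 9.05 for Abcg8 and 9.72 and 10.03 for Abcc2. Apoc2 fell less in DKO livers, at -1.16 from wild type, than in FXR-/- livers, at -2.91, a difference between the knockouts of 1.75 ± 0.12 (adjusted p = 7.8e-09). The receptors Ppara and Nr1i2, not called against wild type, were higher in DKO than in FXR-/- livers by 0.75 ± 0.11 (adjusted p = 6.4e-05) and 0.73 ± 0.09 (adjusted p = 1.6e-05). Their mean levels in SHP-/- and DKO livers were 8.28 and 8.29 for Ppara and 8.69 and 8.51 for Nr1i2.

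**Figure D5:**
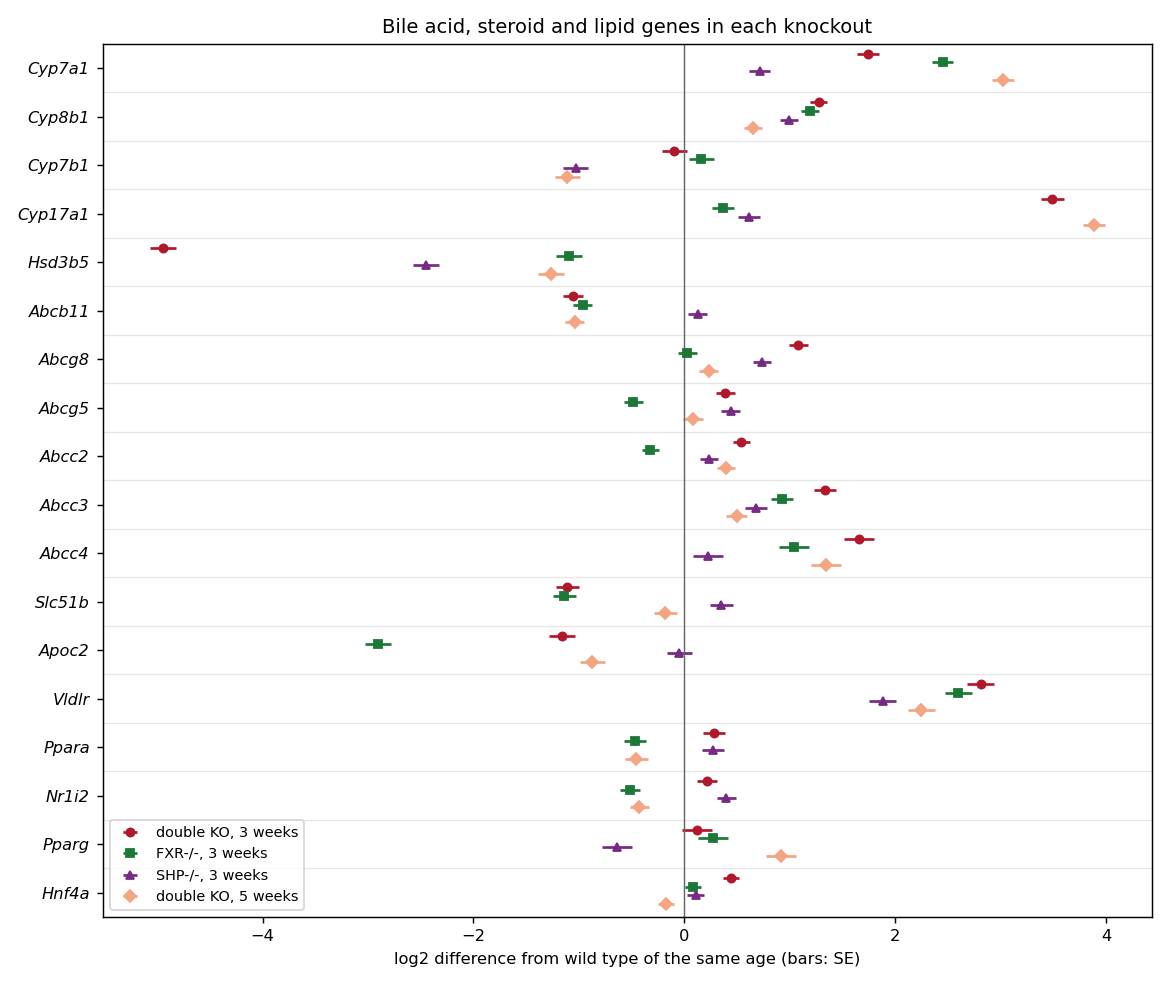
Log2 difference from wild type of the same age, with its standard error, for 18 genes in DKO livers at 3 weeks (red circles), FXR-/- livers at 3 weeks (green squares), SHP-/- livers at 3 weeks (purple triangles) and DKO livers at 5 weeks (orange diamonds). The 3 differences at 3 weeks share their wild-type arrays, and Cyp17a1 lies at 3.49 in DKO livers, 0.37 in FXR-/- livers and 0.61 in SHP-/- livers. Slc51b was undetected in DKO and FXR-/- livers, so its points do not measure the size of a fall.

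The Cyp2b genes differed widely between DKO and FXR-/- livers. Both Cyp2b9 and Cyp2b13 were undetected in FXR-/- livers. Cyp2b9 differed from wild type by 2.01 in DKO and 1.88 in SHP-/- livers, and was at least 15.4-fold lower than wild type in FXR-/- livers. Cyp2b13 differed from wild type by 2.76 in DKO and 2.61 in SHP-/- livers, and was at least 3.0-fold lower than wild type in FXR-/- livers. In DKO livers Cyp2b9 was at least 62.2-fold (adjusted p = 8.3e-18) and Cyp2b13 at least 20.3-fold (adjusted p = 2.5e-16) higher than in FXR-/- livers, and neither was called against SHP-/- livers (adjusted p = 0.396 for Cyp2b9 and 0.332 for Cyp2b13). Cyp2c39 lay the other way, at 2.26 from wild type in DKO and 5.11 in FXR-/- livers, lower in DKO than in FXR-/- livers by -2.85 ± 0.10 (adjusted p = 5.1e-13). Of the 18 female-biased genes 8 were higher and 1 lower in DKO than in FXR-/- livers, against 8.51% and 7.17% of all genes, and 13 were higher and 0 lower than in SHP-/- livers, against 13.7% and 12.2% of all genes. Of the 20 male-biased genes 11 were lower and 3 higher than in FXR-/- livers, and 12 were lower and 1 higher than in SHP-/- livers. Of the 25 cell cycle genes 20 were higher in DKO than in SHP-/- livers and 0 lower, and 1 was higher and 3 lower than in FXR-/- livers. The muscle list ran with these contrasts too, since 22 of its 24 measured members were higher in DKO than in FXR-/- livers and 23 were higher than in SHP-/- livers, although 17 of the 24 had passed through the DKO arrays alone.

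At 5 weeks the difference between DKO and wild-type livers was tested against that at 3 weeks, and 967 genes (12.8%) differed between the ages. The arrays of each age lay on their own slide, so age and slide cannot be told apart, although each knockout effect lies within a slide. Among the 73 genes 19 differed between ages. Cyp7a1 was higher by 3.02 at 5 weeks and by 1.74 at 3 weeks, a change in the effect of 1.28 ± 0.15 (adjusted p = 6.3e-06), while Cyp8b1 was higher by 0.65 at 5 weeks and by 1.27 at 3 weeks, a change of -0.62 ± 0.12 (adjusted p = 0.002). Cyp17a1 and Abcb11 were not called between the ages, at differences of 0.39 (adjusted p = 0.099) and 0.01 (adjusted p = 0.961). The effect differed between ages for 13 of 20 male-biased and 11 of 18 female-biased genes, against 12.8% of all genes. Mean Cyp4a12a in wild-type livers lay at 9.57 at 3 weeks and 11.83 at 5 weeks, where DKO livers lay at 11.44. Mean Sult2a2 in wild-type livers lay at 11.44 at 3 weeks and 5.63 at 5 weeks, where DKO livers lay at 12.56. The part of liver maturation in the shift of sex-biased genes was not tested.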

How the data were processed

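Liver RNA of 16 arrays in 8 groups of 2 was measured on Illumina mouse Ref-8 bead arrays. The deposited bead intensities were averaged per probe and not normalized by the authors, per the file headers, which name BSGX 3.2.3, and BeadStudio is named in the submitters' processing notes. The detection p-value of each probe was deposited beside its intensity. The authors' processed table holds log2 values with the same median, 6.22, in every column, and its transformation is not stated. Ranks in each of its columns matched those of the same array. Of 24613 probes 20984 carried 1 gene symbol, 1 carried several and 3628 carried none. The 16 columns of bead numbers were not used.

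Intensities were background-corrected with the mean and spread of the negative controls inferred from the detection p-values, quantile normalized and log2 transformed with limma's neqc (limma 3.58.1, R 4.3.3, offset 16). Probes detected (p under 0.01) on both arrays of any of the 8 groups were fitted on all 16 arrays, giving 8140 genes, each read by its brightest probe, of which 7577 met the rule for DKO or wild-type livers at 3 weeks. Limma's moderated test with a mean-variance trend had 8 residual degrees of freedom, and p-values were Benjamini-Hochberg adjusted over all genes tested. SE is that of the fit. The test was run on simulated data first. A fold against a group in which the probe was undetected is a lower bound, set against the lowest detected signal of those arrays or the probe's own value where higher.

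The members and the 42 gene lists were chosen with earlier results of these data known. Named genes are the deleted genes, every measured gene of bile acid synthesis, transport, receptors, FXR targets and steroids, the 12 largest rises and falls outside cell type lists, and from each other list up to 8 called and 2 uncalled members. Creb3l3 and Apoh were named after their values were seen. No set test was run, and a list is described by its counts beside those over all genes. Alternatives were the processed table, other background corrections, filters, subsets of arrays, array weights, the replicate block and leaving out each replicate. Array number limits the precision.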

Additional observations from a re-analysis of the deposited data

Results flagged for a closer look

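For 19 genes of bile acids, transport, receptors, FXR targets and steroids the difference between DKO and wild-type livers changed with age in limma's test of the difference itself (effect at 5 weeks minus effect at 3 weeks, log2, adjusted p). Arrays of each age lay on their own slide, so age and slide cannot be told apart.

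The largest was Hsd3b5, lower in DKO livers by -1.26 at 5 weeks and by -4.94 at 3 weeks, a change in the effect of 3.68 ± 0.18 (adjusted p = 3.9e-11). Nr1h4 was lower by -4.55 at 5 weeks and -6.70 at 3 weeks, a change of 2.15 ± 0.15 (adjusted p = 9.1e-09), and as its probe was undetected in DKO livers at 3 weeks, neither the fall at 3 weeks nor the change is measured in size. Cyp7a1 changed by 1.28 ± 0.15 (adjusted p = 6.3e-06) and Cyp7b1 by -1.02 ± 0.17 (adjusted p = 4.0e-04). Cyp7b1 was called lower at 5 weeks, at -1.11, and not at 3 weeks. Cyp8b1 changed by -0.62 and Cyp39a1 by -0.56.

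Among transporters, the fitted change for Slc51b was 0.93, but its probe was undetected in DKO livers at both ages and in wild-type livers at 5 weeks, so the size of that change is not measured. Abcg8 changed by -0.85, and was called higher at 3 weeks, at 1.08, but not called at 5 weeks, at 0.23. Abcc3 changed by -0.84 and Abcc6 by -0.80. Among receptors and factors, Pparg changed by 0.80, Ppara by -0.74, Nr1i2 by -0.64, Hnf4a by -0.62 and Rora by -0.55. Ppara and Nr1i2 were called lower at 5 weeks, at -0.46 and -0.43, and not called at 3 weeks. Of the remaining genes Hsd17b7 changed by 0.67, Vldlr by -0.56, Scarb1 by -0.52 and Insig2 by -0.50. Scarb1 was called against wild type at neither age.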

How the results depend on the processing

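None of the 351 named genes reversed under any alternative that gave it a value, and the filter for probes detected on all 4 arrays left 304 of them. A reversal was a change of sign in a called gene, or in an uncalled gene that became called. Fits of only the 8 arrays of 3 weeks or the 4 arrays compared could not show one, since they change the spread and not the difference. The same holds for array weights, the replicate block and leaving out the mean-variance trend. The processed table gave 142 genes changed at least 2-fold and the filter for probes detected on all 4 arrays gave 188, in place of 305. That filter tests fewer genes, and the cause of the lower count in the processed table was not tested. Fitting only the 4 arrays compared gave 587 higher and 446 lower calls and array weights gave 707 higher and 551 lower, in place of 1084 and 948. Leaving out each replicate gave 734 to 1357 higher calls, 556 to 1272 lower calls and 293 to 359 changes of at least 2-fold. Among named genes, 56 lost their call with only the 4 arrays, 39 with array weights and 5 in the processed table. Replicate numbers were only shared, since the DKO and wild-type differences between replicates 1 and 2 correlated at 0.02 across genes. With the replicate block 1075 genes were higher and 959 lower, 4 named genes lost their call and 1 gained one. Leaving out the muscle, pancreas and stomach genes, chosen after seeing the data, left 258 changes of at least 2-fold. Genes of bile acids and steroids that differed numbered 26 from FXR-/- livers, 35 from SHP-/- livers and 18 between ages in the processed table, in place of 24, 34 and 19. The low signal of undetected probes limits the size of their falls.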

Other observations

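Beta-globin probes did not move alike. Hbb-b2 measured 9.61 and 9.44 in DKO livers, against 4.97 and 4.89 in wild-type livers, where it was detected on 1 of 2 arrays, a difference of 4.60 ± 0.10 (limma, adjusted p = 2.4e-16), while Hbb-bt measured 7.35 and 7.02 in DKO livers, against 7.93 and 7.92 in wild-type livers, a difference of -0.74 ± 0.14 (adjusted p = 5.6e-04). Hbb-b2 differed from wild type by 5.02 in FXR-/- and 0.86 in SHP-/- livers, which share the wild-type arrays. Hbb-bt was undetected in FXR-/- livers at 3 and at 5 weeks, and at least 8.3-fold lower than wild type at 3 weeks. Its mean at 3 weeks was 7.57 in SHP-/- and 7.93 in wild-type livers. These genes are close copies, and how far their probes read each other's RNA was not tested.

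Some of the largest falls in DKO livers stood beside those of 1 single knockout. The difference from wild type was -5.16 in DKO, -5.24 in FXR-/- and -0.27 in SHP-/- livers for Ang. Supt16 was undetected in DKO and FXR-/- livers, at least 10-fold and 9.6-fold lower than in wild-type livers, and differed by -0.26 in SHP-/- livers. For Pnrc2, detected on 1 of 2 DKO arrays, it was -3.23 in DKO, -0.29 in FXR-/- and -2.94 in SHP-/- livers. Prap1 was undetected in all 3 knockouts, at least 20.3-fold lower in DKO, 19.5-fold in FXR-/- and 19.5-fold in SHP-/- livers. Its probe was also undetected at 5 weeks, in wild-type livers as in the knockouts. The same held for Tff1, Reg3b, Gkn1 and Muc2 of the stomach and intestine list, though not for Tff2, Tff3, Gkn3 and Lgals4. The part of stomach and intestine RNA in the fall of Prap1 was not tested.

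By gene order in GRCm38.p6, Pnrc2 and Fabp3 lie among the 25 tested genes on each side of Nr0b2, of which 21 of 50 (42%) were called and 6 (12%) changed at least 2-fold. Around Nr1h4, 15 of 50 neighbours (30%) were called and 5 (10%) changed at least 2-fold, Socs2 and Amdhd1 among them. Over all genes 26.8% were called and 4.03% changed at least 2-fold. Such stretches also lay away from the deleted genes. Among windows of 40 genes, the largest count of changes of at least 2-fold was 7, on chromosome 14, with Ang and Supt16 among them. Windows on chromosomes 6 and 7 held 6 each, as did that of chromosome 4 with Fabp3. Like the muscle gene Atp2a1, Fabp3 was undetected in wild-type livers at 3 weeks and in FXR-/- livers at 5 weeks.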
